A study of Mus musculus with 4 samples.

Results

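The genes described here are 42 genes of sterol synthesis, sterol efflux and lipid handling, taken by symbol from a deposited table of 55401 mouse genes. All 42 were found, and all 42 passed the filter on low counts. They fall into 20 genes of cholesterol synthesis and its control, 11 genes of the liver X receptors (LXR) and of sterol efflux, 3 genes of fatty acid synthesis and 8 genes of lipid uptake and storage. RNA was sequenced from bone marrow-derived macrophages of C57BL/6 mice aged 8 weeks. The cells were grown with M-CSF, the growth factor that turns marrow precursors into macrophages, and then shared a culture for 24 h with MC38, a line of mouse colon carcinoma cells. Control libraries 1 and 3 came from mice carrying the floxed Mettl3 allele (Mettl3fl/fl), and knockout libraries 1 and 3 from mice that carried LysM-cre besides, so the floxed allele was shared by all 4 libraries. Mettl3 encodes the enzyme that writes N6-methyladenosine on mRNA, and LysM-cre is a recombinase driven by the lysozyme M gene in myeloid cells.

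Cells make cholesterol from acetyl-CoA through mevalonate, farnesyl pyrophosphate, squalene and lanosterol, and SREBP2 (encoded by Srebf2) switches on the genes of this route when membrane sterol is low. The Insig proteins hold SREBP2 in the endoplasmic reticulum when sterol is plentiful, and oxidised sterols then activate LXR, which raises the exporters Abca1 and Abcg1 and the lipid carrier Apoe. Macrophages that take up dead cells or lipoproteins rely on this balance, and they store the excess as lipid droplets.

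SREBP2 is known to bind sterol response elements near the start of its target genes, often beside a CCAAT box, which binds the factor NF-Y. The 250 bases before each gene's start were searched on both strands in RefSeq promoter windows (GRCm38.p6), which were at hand for 31 of the 42 genes. A CCAAT box (CCAAT) stood in 15 of the 16 sterol synthesis genes with a window, Acat2 being the exception, and in 4 of the 9 LXR and efflux genes, against 37.5% of 27025 genes. The core of the sterol response element (TCACCCCA) stood in 2 of the 16, Hmgcs1 and Srebf2, and in 1 of the 9, Apoe, against 1.54% of genes. An E-box (CACGTG) stood in 4 of the 16 and in 1 of the 9, against 6.86% of genes. The LXR element known as DR4, a direct repeat of AGGTCA, stood in none of the 16 and none of the 9, and in 5 of 32851 windows. These matches describe letters in a window and are neither sites nor causes. Shown are the promoters of the 2 sterol genes that hold the sterol element core, of Mvd, whose 2 CCAAT boxes lie on opposite strands, and of Sc5d, the member with the lowest adjusted p between library numbers. They lie at chr13:119690101-119690350 on the plus strand, chr15:82147019-82147180 on the plus strand, chr8:122443423-122443672 on the minus strand and chr9:42264301-42264550 on the minus strand. Capitals mark the sterol element core and the CCAAT box on either strand, where the reverse strand reads ATTGG. The whole 250 bases were searched in each gene, but the stretch shown for Srebf2 is cut to its first 162 bases, since a GENCODE transcript of the gene starts there.
Hmgcs1: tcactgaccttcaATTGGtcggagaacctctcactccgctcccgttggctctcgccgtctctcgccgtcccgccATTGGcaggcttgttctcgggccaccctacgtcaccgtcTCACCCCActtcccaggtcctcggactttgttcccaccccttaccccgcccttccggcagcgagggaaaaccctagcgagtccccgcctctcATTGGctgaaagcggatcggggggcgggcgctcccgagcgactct
Srebf2: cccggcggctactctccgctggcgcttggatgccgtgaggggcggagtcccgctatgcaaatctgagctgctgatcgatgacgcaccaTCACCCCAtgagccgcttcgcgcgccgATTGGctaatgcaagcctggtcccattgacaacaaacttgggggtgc
Mvd: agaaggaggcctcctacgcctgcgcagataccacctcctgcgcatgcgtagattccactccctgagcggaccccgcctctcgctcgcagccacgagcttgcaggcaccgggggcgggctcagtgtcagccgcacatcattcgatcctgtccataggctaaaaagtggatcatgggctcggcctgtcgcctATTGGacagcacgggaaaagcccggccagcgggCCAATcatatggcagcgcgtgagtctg
Sc5d: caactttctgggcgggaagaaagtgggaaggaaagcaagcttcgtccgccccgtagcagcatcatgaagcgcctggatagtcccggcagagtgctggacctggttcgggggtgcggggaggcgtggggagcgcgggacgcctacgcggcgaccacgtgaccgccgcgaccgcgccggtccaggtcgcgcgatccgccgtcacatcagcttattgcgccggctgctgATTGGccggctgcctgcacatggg

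The 4 libraries held 55100415 to 79209870 counts, and libraries of equal number shared a sex pattern. Ddx3y, on the Y chromosome, had 72.1 and 89.1 CPM in the libraries numbered 1 but 0.307 and 0.139 CPM in those numbered 3, where CPM means counts scaled to a common library size. Xist, which silences an X chromosome in female cells, had 0.589 and 0.624 CPM in the libraries numbered 1 and 1351 and 1161 CPM in those numbered 3. Number and sex pattern therefore coincide and cannot be told apart. For part of the genes the difference between genotypes is also given within each number. The label of the knockout is not checked by Mettl3, whose counts cover the whole gene: it had 18.3 (control 1), 23.2 (control 3), 13.9 (knockout 1) and 19.6 CPM (knockout 3). Macrophage markers were present in all libraries, 12 of 12 with summed levels of 43594 to 58468 CPM, led by Lyz2 and Adgre1. Of 16 epithelial markers, a candidate trace of the carcinoma cells, 10 had no count in any library, Epcam, Krt8 and Krt18 among them, and the sum was 1.07 to 1.97 CPM. Replicates are biological per the labels, and p-values measure only the spread between these 4 samples.

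Per gene length (FPKM), the 8 most abundant of the 42 were efflux and storage genes. Apoe, which carries lipid out of macrophages, had the highest mean level of the 42 genes, 1825 FPKM. It was followed by Gpnmb, a membrane protein of lipid-laden macrophages, at 311 FPKM, Pltp, a phospholipid transfer protein, at 259 FPKM, Fabp5, a fatty acid binding protein, at 129.6 FPKM and Abca1 at 127 FPKM. The 20 sterol genes ranged only from a mean of 3.10 FPKM for Lss, which closes squalene epoxide into lanosterol, to 22.5 FPKM for Insig1. At the low end, Apoc1, a small apolipoprotein, had a mean of 0.853 FPKM and Pparg, a nuclear receptor of lipid storage, one of 1.47 FPKM. FPKM values were the authors', and Apoc1 had 21, 105 and 50 counts in control 1, control 3 and knockout 1 and none in knockout 3.

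**Figure D1:**
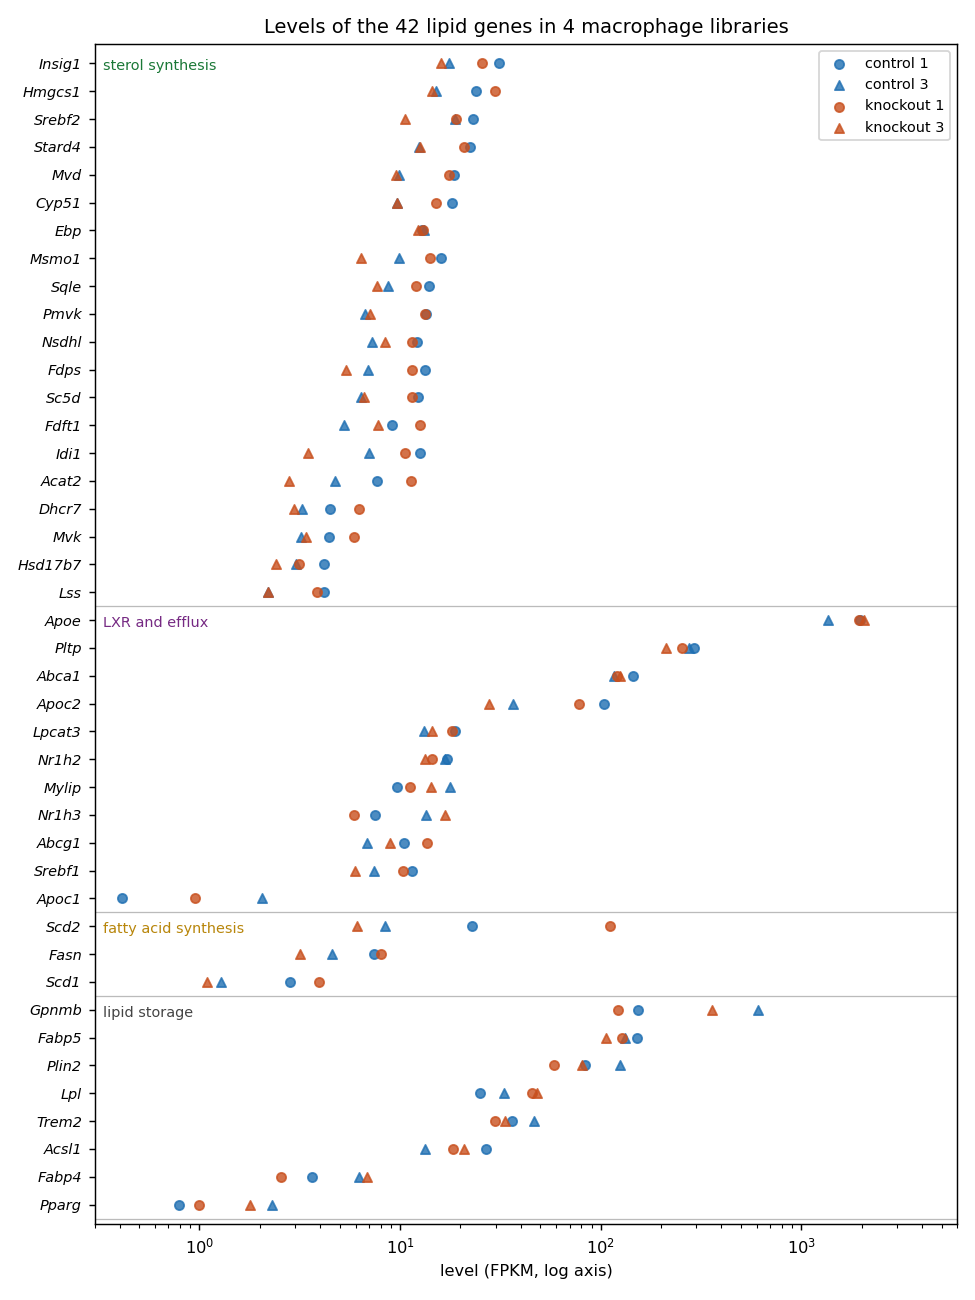
Level of each of the 42 genes in each library on a log axis in FPKM, grouped by role and ordered by mean level. Circles are libraries numbered 1 and triangles those numbered 3. Among the sterol genes the triangles lie left of the circles except for Ebp, and Apoc1 in knockout 3, at 0, is not drawn.

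The first comparison asked whether macrophages with LysM-cre differed from controls in these genes. No gene of the 42 passed edgeR, or DESeq2 with genotype alone in the fit. Of 17260 genes tested with edgeR's quasi-likelihood test, 0 (0%) passed an adjusted p of 0.05, 391 (2.27%) had an unadjusted p under 0.05, and DESeq2 called 74 (0.295% of 25066), none of them a member. With library number as a further term DESeq2 called 175 genes (0.698%), 1 of them a member, Lpl. In edgeR with genotype alone, Lpl was the 1 member with an unadjusted p under 0.05, and the adjusted p was 1 for all 42 genes. With library number as a term, edgeR had an unadjusted p under 0.05 for 929 of 17260 genes. Among the members these were Lpl, Fdft1 and Abcg1, higher in the knockout, and Plin2, Srebf2, Gpnmb, Apoc2, Trem2 and Idi1, lower. In that fit no gene passed after adjustment. In 1 of the 42 genes (2.38%) both knockouts lay above both controls, against 13.1% of all tested genes, and in 6 (14.3%) both lay below, against 13.4%. Within both numbers the knockout was lower in 17 genes (40.5%, against 27.1% of all) and higher in 4 (9.52%, against 25.6%). In bulk RNA, fewer cells of a type and less RNA per cell cannot be told apart.

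The sterol synthesis arm had a median log2 fold change between genotypes of -0.07, with 13 of 20 genes below 0, where all tested genes had a median of -0.00 and 50.2% below 0. Its median difference was -0.12 within number 1 and -0.05 within number 3. Summed over the 20 genes, the arm stood at 1342 (control 1), 818 (control 3), 1263 (knockout 1) and 714 CPM (knockout 3). The sums of the genotypes interleave, the libraries numbered 1 being high and those numbered 3 low. Leaving out control 1, control 3, knockout 1 or knockout 3 moved the median to 0.468, -0.463, -0.504 and 0.246. Each omission unbalances number between the genotypes, so these medians also hold the difference between numbers.

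The early steps were followed in the order of the pathway. Hmgcs1, which makes HMG-CoA, stood at 123 (control 1), 76.0 (control 3), 151 (knockout 1) and 74.2 CPM (knockout 3). Only the libraries numbered 1 separate here, the log2 difference being 0.30 there and -0.03 between the libraries numbered 3, and the genotypes overlap. Acat2, which makes the acetoacetyl-CoA that Hmgcs1 uses, stood at 21.9 (control 1), 13.2 (control 3), 32.1 (knockout 1) and 7.97 CPM (knockout 3). Its knockouts were the highest and the lowest library, with log2 differences of 0.55 and -0.72 within numbers 1 and 3, and its transcripts share 97.7% of 1477 aligned bases with its copy Acat3, so its count is uncertain. Mvk, the mevalonate kinase, was higher in the knockout within both numbers, by 0.39 and 0.10 on the log2 scale, at 13.3 (control 1), 9.48 (control 3), 17.5 (knockout 1) and 10.2 CPM (knockout 3). Its genotypes overlap, and Mvk had a log2 fold change of 0.28 ± 0.37 (± SE, with 2 libraries per group, here and below, edgeR unadjusted p = 0.487). Unless library number is named as a term, the genotype fits held genotype alone, so their SE also takes in differences between library numbers. Pmvk and Mvd, the following kinase and decarboxylase, had log2 fold changes of 0.02 and -0.07. Idi1, the isopentenyl isomerase, stood at 49.5 (control 1), 27.0 (control 3), 41.3 (knockout 1) and 13.6 CPM (knockout 3). Knockout 3 was the lowest library, and the log2 differences within numbers 1 and 3 were -0.26 and -0.99. Fdps, which makes farnesyl pyrophosphate, had -0.22 and -0.32. Both genes have near-identical copies elsewhere in the genome, Gm13502 for Idi1 and Gm3571 for Fdps, so their counts are uncertain. In all, 6 of the 42 genes have such a copy, Fabp5, Fdft1 and Scd2 being the others.

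The steps from squalene to cholesterol came next. Fdft1, the squalene synthase, stood at 42 (control 1), 23.6 (control 3), 57.2 (knockout 1) and 35.8 CPM (knockout 3). It was higher in the knockout within each number, by 0.44 and 0.60 on the log2 scale, though control 1 lay above knockout 3, so the groups overlap. The log2 fold change of Fdft1 was 0.50 ± 0.39 (edgeR unadjusted p = 0.254, adjusted p = 1). Fitted with library number as a term, Fdft1 had 0.52 ± 0.13 (edgeR unadjusted p = 0.0155, adjusted p = 0.88). On the opposite strand 18.3% of its exonic bases overlap Ctsb, a lysosomal protease at 6323 to 6864 CPM, and the sources used here do not give whether counting used the strand. In all, 13 of the 42 genes share exonic bases with another gene, 9 of them with one on the opposite strand. Sqle, the squalene epoxidase, had a log2 fold change of -0.20, Lss one of -0.07, Cyp51, which removes a methyl group of lanosterol, one of -0.16, and Msmo1, the sterol methyl oxidase, one of -0.34. Msmo1 was the lowest in knockout 3, at 44.2 CPM against 66.9 CPM in control 3. Nsdhl, Hsd17b7, Sc5d and Dhcr7, the later dehydrogenases, reductases and desaturase, had log2 fold changes of 0.04, -0.37, -0.05 and 0.26. Between numbers 1 and 3 the sign turned in Nsdhl (-0.10 and 0.24), Sc5d (-0.12 and 0.07) and Dhcr7 (0.46 and -0.09). Ebp, the sterol isomerase, was almost level, at 33.5 (control 1), 33.4 (control 3), 33.3 (knockout 1) and 31.9 CPM (knockout 3). The knockouts of Ebp lay below its controls, but with a log2 fold change of only -0.04 ± 0.16.

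Of the regulators, Srebf2 stood at 187 (control 1), 148 (control 3), 151 (knockout 1) and 84.9 CPM (knockout 3). It was lower in the knockout within both numbers, and control 3 lay just below knockout 1, so the groups overlap. The log2 fold change of Srebf2 was -0.51 ± 0.33 (edgeR unadjusted p = 0.185, adjusted p = 1), with -0.31 and -0.81 within numbers 1 and 3. Srebf2 had -0.56 ± 0.17 when library number was a term (edgeR unadjusted p = 0.0268, adjusted p = 0.922). Insig1, which holds SREBP2 back and is itself its target, had a log2 fold change of -0.21, and Stard4, a carrier of sterol between membranes, one of -0.06.

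The LXR and efflux arm had a median log2 fold change of -0.09, with 7 of 11 genes below 0 and medians of -0.16 and -0.28 within numbers 1 and 3. Its sum is mostly Apoe and stood at 7680.4 (control 1), 5611 (control 3), 7147 (knockout 1) and 7305 CPM (knockout 3). The knockouts lie between the controls. The receptors came first in the order of action. Nr1h3 (LXR alpha) stood at 21.3 (control 1), 37.3 (control 3), 16.6 (knockout 1) and 47.0 CPM (knockout 3). It was highest in knockout 3 and lowest in knockout 1, with opposite log2 differences of -0.36 and 0.33 within numbers 1 and 3. Nr1h2 (LXR beta) stood at 65.0 (control 1), 61.4 (control 3), 54.1 (knockout 1) and 50.2 CPM (knockout 3). Both knockouts lay below both controls, with a log2 fold change of -0.28 ± 0.15 (edgeR unadjusted p = 0.127, adjusted p = 1).

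Among the LXR targets the 2 sterol exporters had log2 fold changes of opposite sign, but within number 3 both lay above 0. Abca1, which loads lipid-poor apolipoproteins with cholesterol, stood at 1693 (control 1), 1328 (control 3), 1388 (knockout 1) and 1447 CPM (knockout 3). The groups overlap fully, with a log2 fold change of -0.09 ± 0.21 and log2 differences of -0.29 and 0.12 within numbers 1 and 3. Abcg1, which passes cholesterol to mature HDL particles, stood at 85.6 (control 1), 54.9 (control 3), 111 (knockout 1) and 72.8 CPM (knockout 3). Within each number the knockout was higher, by 0.37 and 0.41 on the log2 scale, but control 1 lay above knockout 3. Its log2 fold change was 0.39 ± 0.32 (edgeR unadjusted p = 0.289, adjusted p = 1). Abcg1 had 0.39 ± 0.12 with library number as a term (edgeR unadjusted p = 0.0274, adjusted p = 0.922). Apoe stood at 4704 (control 1), 3165 (control 3), 4609 (knockout 1) and 4911 CPM (knockout 3). Control 3 was low and the other 3 libraries lay close together, which gave log2 differences of -0.03 and 0.63 for numbers 1 and 3. Pltp, at 839 (control 1), 774 (control 3), 725 (knockout 1) and 608 CPM (knockout 3), had both knockouts below both controls and a log2 fold change of -0.27 ± 0.19 (edgeR unadjusted p = 0.207, adjusted p = 1). On the opposite strand 19.3% of its exonic bases overlap Ctsa, at 808 to 880 CPM. Mylip, a ubiquitin ligase, had a log2 fold change of -0.09 (0.21 and -0.28 within numbers 1 and 3). Lpcat3, which remodels phospholipids, had one of 0.04 (-0.06 and 0.18 within numbers 1 and 3). Srebf1, the lipogenic SREBP, had one of -0.21 (-0.16 and -0.28 within numbers 1 and 3). Apoc2, the cofactor of lipoprotein lipase, had one of -0.41 (-0.43 and -0.36 within numbers 1 and 3). Apoc2 had -0.40 ± 0.12 with library number as a term (edgeR unadjusted p = 0.0291, adjusted p = 0.922).

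Of the 3 fatty acid synthesis genes, Scd2, a stearoyl-CoA desaturase, varied most. It stood at 139 (control 1), 50.2 (control 3), 675 (knockout 1) and 37.2 CPM (knockout 3). Knockout 1 stood alone above the rest, and the sign turned between numbers, from 2.28 within number 1 to -0.43 within number 3 on the log2 scale. Its log2 fold change was 1.91 ± 1.36 (edgeR unadjusted p = 0.224, adjusted p = 1), and it was -1.33 without knockout 1. The latter sets knockout 3 against controls of both numbers, so it also holds the difference between numbers, which was -1.47 within the controls. The transcripts of Scd2 share 95.5% of 623 aligned bases with Scd1, the sister desaturase. Scd1 stood at 15.6 (control 1), 6.91 (control 3), 21.5 (knockout 1) and 6.00 CPM (knockout 3). Here too knockout 1 was the highest library. Fasn, the fatty acid synthase, had log2 differences of 0.09 and -0.50 within numbers 1 and 3.

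Among the 8 lipid uptake and storage genes, 7 had a log2 fold change below 0 and Lpl stood on the other side. Lpl (chromosome 8, 68880491 to 68906934 in the deposited table), the secreted lipase that frees fatty acids from lipoproteins, stood at 293 (control 1), 378 (control 3), 529 (knockout 1) and 563 CPM (knockout 3). Both knockouts lay above both controls, in each number. The log2 fold change of Lpl was 0.70 ± 0.20 (edgeR unadjusted p = 0.0192, adjusted p = 1; DESeq2 adjusted p = 0.558). With library number, which coincides with the sex pattern, as a term in the fit, Lpl passed DESeq2 with a log2 fold change of 0.72 (adjusted p = 0.0202) and did not pass edgeR (adjusted p = 0.826). Under the other alternatives its adjusted p lay between 0.558 and 1. The difference was 0.85 between the libraries numbered 1 and 0.58 between those numbered 3, and the fold change lay between 0.54 and 0.90 on the log2 scale with any 1 library left out. Lpl and Plin2 are also genes of fat cells, of which Adipoq, Plin1, Lep, Cfd and Aqp7 had no count in any library, and the 8 adipocyte markers summed to 0.0736 to 0.42 CPM.

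Plin2, which coats lipid droplets, lay on the other side of 0 from Lpl. It stood at 329 (control 1), 482 (control 3), 228 (knockout 1) and 316 CPM (knockout 3). Both knockouts lay below both controls, with log2 differences of -0.53 and -0.61 within numbers 1 and 3. The log2 fold change of Plin2 was -0.58 ± 0.28 (edgeR unadjusted p = 0.103, adjusted p = 1). With library number in the fit, as for Lpl, Plin2 had -0.57 ± 0.12 (edgeR unadjusted p = 0.00762, adjusted p = 0.852). It did not pass DESeq2 there (adjusted p = 0.156). Trem2, a lipid receptor of macrophages, stood at 199.6 (control 1), 253 (control 3), 164 (knockout 1) and 185 CPM (knockout 3). Its knockouts also lay below its controls, with a log2 fold change of -0.37 ± 0.19 (edgeR unadjusted p = 0.112, adjusted p = 1). Fabp5 stood at 607 (control 1), 519 (control 3), 507 (knockout 1) and 423 CPM (knockout 3). It was likewise lower in both knockouts than in both controls, with a log2 fold change of -0.28 ± 0.19. Gpnmb stood at 1123 (control 1), 4335 (control 3), 886 (knockout 1) and 2628 CPM (knockout 3). The libraries numbered 3 were high and the genotypes overlap, while the knockout was lower within each number, with log2 differences of -0.34 and -0.72. In the fit with library number as a term Gpnmb had -0.53 ± 0.16 (edgeR unadjusted p = 0.0271, adjusted p = 0.922, DESeq2 adjusted p = 0.263). Acsl1, which activates long-chain fatty acids, had opposite log2 differences of -0.57 and 0.66 within numbers 1 and 3, at 316 (control 1), 154 (control 3), 213 (knockout 1) and 243 CPM (knockout 3). Fabp4, a fatty acid binding protein, and Pparg had log2 fold changes of -0.05 and -0.14. Within numbers 1 and 3 the log2 differences were -0.52 and 0.17 for Fabp4 and 0.30 and -0.33 for Pparg.

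**Figure D2:**
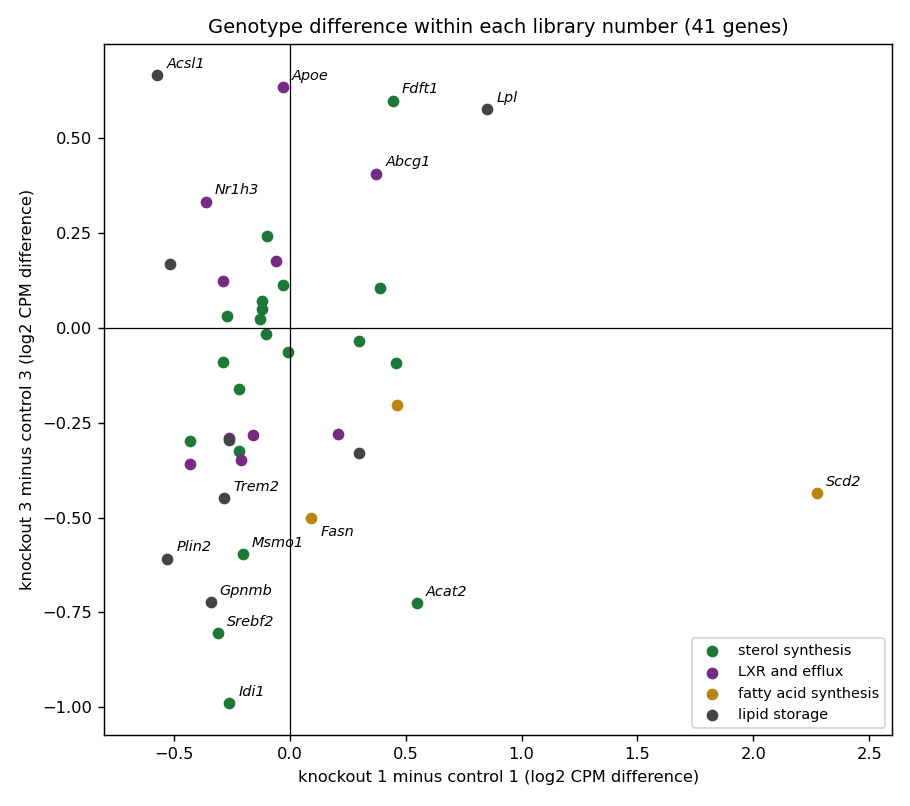
Difference between knockout and control in log2 CPM within number 1 (horizontal axis) and within number 3 (vertical axis), 1 point per gene for 41 genes, coloured by role. Lpl, Fdft1 and Abcg1 lie at the upper right, above 0 in both numbers, and Plin2, Gpnmb, Srebf2 and Idi1 at the lower left, while Scd2, at 2.28 and -0.43, lies far to the right. Apoc1, with no count in knockout 3, is left out.

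**Figure D3:**
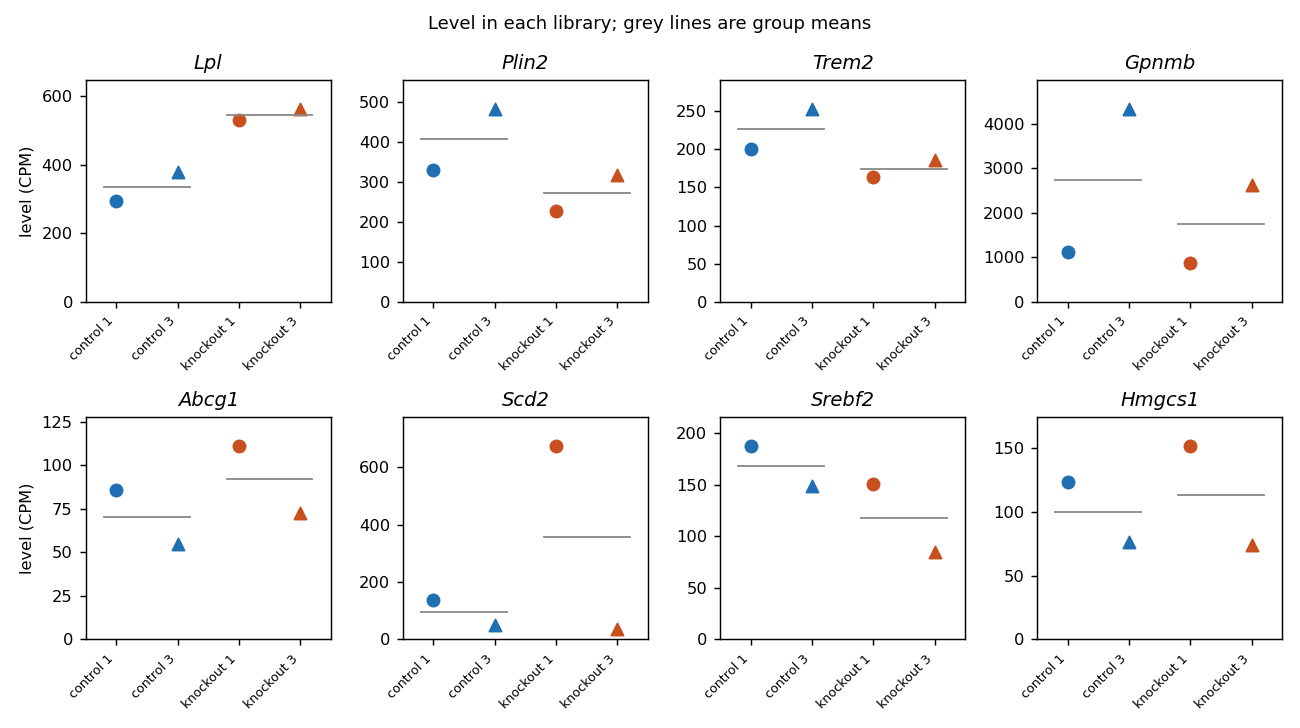
Level of 8 genes in CPM in each of the 4 libraries, with grey lines at the means of the 2 controls and of the 2 knockouts. The knockouts lie above the controls for Lpl and below them for Plin2 and Trem2, while Gpnmb, Abcg1, Srebf2 and Hmgcs1 overlap and Scd2 is high only in knockout 1.

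Markers of other cells were read beside these values. Of 14 fibroblast genes, 13 had a log2 fold change below 0, with a median of -0.50, and all 14 were detected. They were led by Col1a1 and Col1a2, and their sum was 494 (control 1), 1011 (control 3), 395 (knockout 1) and 649 CPM (knockout 3). The 20 cell cycle genes, led by Mki67 and Pcna, summed to 651, 361, 893 and 356 CPM in the same order, with a median difference of 0.61 within number 1 and -0.34 within number 3. The part of either list in the lipid genes was not tested.

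Other genes of the same pathways, from lists chosen for their known roles, did not pass either. In none of the 5 lists did a gene pass edgeR or DESeq2 between genotypes. In edgeR with genotype alone, 1 gene, Thrsp, had an unadjusted p under 0.05. Of 12 further genes of sterol and isoprenoid synthesis 8 lay below 0, with a median log2 fold change of -0.08. Coq2, which attaches the side chain of ubiquinone, had the lowest p among the higher ones, with 0.47 ± 0.24 (edgeR unadjusted p = 0.111), and Dhdds, an enzyme of dolichol synthesis, among the lower ones, with -0.33 ± 0.23 (edgeR unadjusted p = 0.216). Nus1, the partner of Dhdds, is among the most abundant of them per length and had a log2 fold change of -0.14.

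Among 16 tested genes of SREBP control and sterol uptake 8 lay below 0, with a median of 0.01. Lrp1, a lipoprotein and dead-cell receptor, had a log2 fold change of -0.18, Npc2, which moves sterol out of lysosomes, one of 0.07, Sp1, a general activator, one of 0.11 and Gramd1b, a sterol transfer protein, one of -0.49. Of 18 further LXR and efflux genes 10 lay below 0, with a median of -0.02. Nceh1, which frees cholesterol from its esters, stood at 228 (control 1), 225 (control 3), 171 (knockout 1) and 187 CPM (knockout 3). In Nceh1 the knockouts lay below the controls, with a log2 fold change of -0.34 ± 0.15 (edgeR unadjusted p = 0.0753, adjusted p = 1). Cd82, a tetraspanin, had 0.21, Pla2g7, a phospholipase of lipoproteins, -0.01 and Smpdl3a, a phosphodiesterase, -0.13 on the same scale.

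For 15 further genes of fatty acid synthesis the median log2 fold change was -0.00, also with Thrsp at its bound, and 8 lay below 0. Thrsp, a nuclear protein of lipogenic tissue, had 24 and 15 counts in the controls and 0 in both knockouts, at least 2.30-fold and 1.60-fold lower within numbers 1 and 3 against a floor of 12 counts per library. Acly, which makes cytosolic acetyl-CoA, had a log2 fold change of 0.05, Elovl1, an elongase, one of 0.17, and Acaca, the acetyl-CoA carboxylase, one of 0.28. Of 27 further genes of storage, lysosomal breakdown and oxidation 20 lay below 0, with a median of -0.09. Cpt1a, which carries fatty acids into mitochondria, stood at 112 (control 1), 115 (control 3), 90.8 (knockout 1) and 92.9 CPM (knockout 3). The knockouts lay below the controls without overlap, with a log2 fold change of -0.31 ± 0.14 (edgeR unadjusted p = 0.0807, adjusted p = 1). Acsl5, which activates fatty acids, had a log2 fold change of 0.16, and the lysosomal proteases Ctsd and Ctsb had -0.11 and 0.00.

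The second comparison set the libraries numbered 3 against those numbered 1, to show how the genes varied where genotype is balanced. Sterol synthesis genes stood lower in the libraries numbered 3, in both genotypes. All 20 had a log2 difference below 0, against 50.2% of all tested genes, and in 19 of 20 both libraries numbered 3 lay below both numbered 1, against 25.2%. The median difference was -0.80, with -0.80 within the controls and -0.79 within the knockouts. Of all 17260 genes edgeR called 177 (1.03%), of which 82 (0.475%) were lower and 95 (0.55%) higher. It called 0 of the 42 members, whose lowest adjusted p was 0.0586. With genotype as a term edgeR called 122 of 17260 genes, among them Apoc2 (edgeR adjusted p = 0.0381) and Gpnmb (edgeR adjusted p = 0.0474). At an unadjusted p under 0.05, edgeR had 17 of the 20 lower, against 9.32% of all genes. DESeq2 called 6.27% of genes. Of the 42 members it called 20 lower, 15 of them sterol genes, and 5 higher. Of the 25066 genes in DESeq2, 3.36% were called lower and 2.91% higher. Among the 17260 genes that passed the filter, as all 42 members did, DESeq2 called 831 lower and 721 higher. The shares of 3.36% and 2.91%, also used below, take in genes under the filter and are smaller than the shares among these 17260. The count of 177 edgeR calls turned on single libraries, being 4 without control 1, 57 without control 3, 1 without knockout 1 and 87 without knockout 3.

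Sc5d, the sterol desaturase (chromosome 9, 42251595 to 42264256), had that lowest adjusted p and stood at 67.2 (control 1), 34.1 (control 3), 61.8 (knockout 1) and 35.9 CPM (knockout 3). The libraries numbered 1 were high and those numbered 3 low, with no overlap, and the log2 difference was -0.88 ± 0.12 (± SE, 2 libraries per number; edgeR adjusted p = 0.0586). Stard4 stood at 140.3 (control 1), 76.0 (control 3), 129 (knockout 1) and 78.7 CPM (knockout 3). Its libraries split in the same way, with a log2 difference of -0.80 ± 0.11 (edgeR adjusted p = 0.0603). Mvd stood at 38.9 (control 1), 20.2 (control 3), 36.2 (knockout 1) and 19.9 CPM (knockout 3), and Lss at 50.4 (control 1), 26.1 (control 3), 46.2 (knockout 1) and 26.5 CPM (knockout 3). Both split by number, with log2 differences of -0.90 and -0.88 (edgeR adjusted p = 0.0619 and 0.0618). Pmvk had -0.98 on this scale, Fdps -1.02, Hmgcs1 -0.87, Cyp51 -0.79 and Insig1 -0.77, with edgeR adjusted p from 0.0630 for Pmvk to 0.0941 for Insig1.

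The exceptions were few. Ebp had a log2 difference of -0.04 ± 0.12 and is the only sterol gene whose libraries overlap between numbers. It lies on the X chromosome, as does Nsdhl, which had -0.60 ± 0.15. Srebf2, the regulator itself, had -0.54 ± 0.29 (edgeR adjusted p = 0.417), -0.34 within the controls and -0.83 within the knockouts. Acat2 and Idi1 had the largest differences of the arm, -1.35 and -1.16, and in both knockout 3 was the lowest library. The other sterol genes ranged from -0.89 for Msmo1 to -0.44 for Hsd17b7.

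The 12 further sterol genes had a median log2 difference of -0.29 by number, with 9 below 0 and 7 (58.3%) with both libraries numbered 3 below both numbered 1, against 25.2% of all tested genes. Of the 5 lists of other pathway genes, 2 genes passed edgeR by number: Vldlr, a lipoprotein receptor, was lower in number 3, with a log2 difference of -1.73 ± 0.19 (edgeR adjusted p = 0.0417), and Cd36, a scavenger receptor for oxidised lipoproteins and fatty acids, was higher, with one of 1.42 ± 0.13 (edgeR adjusted p = 0.0299).

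The efflux arm was mixed by number. Its median log2 difference by number was -0.18, with 8 of 11 below 0, and in 4 of 11 (36.4%) both libraries numbered 3 lay below both numbered 1, against 25.2% of all tested genes. Apoc2 had the lowest adjusted p of the arm and stood at 95.3 (control 1), 32.6 (control 3), 70.7 (knockout 1) and 25.4 CPM (knockout 3). The split by number was complete in both genotypes, at -1.52 ± 0.21 (edgeR adjusted p = 0.0602). Abcg1, Srebf1 and Lpcat3 were the others, at -0.62, -0.71 and -0.43. Nr1h3 and Mylip went the other way without overlap, at 1.16 ± 0.20 (edgeR adjusted p = 0.0851) and 0.60 ± 0.16 (edgeR adjusted p = 0.152), where 26.2% of all genes had both libraries numbered 3 above both numbered 1. Apoe, Pltp, Abca1 and Nr1h2 ranged from -0.21 for Apoe to -0.10 for Nr1h2, and Apoc1 is given by its counts alone. The exons of Apoc2 share 79.5% of their bases with Gm44805 on the same strand, which stood at 0 to 0.112 CPM. DESeq2 called 2 genes of the arm lower, against 3.36% of all genes, and 2 higher, against 2.91%.

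In DESeq2 the 3 fatty acid synthesis genes were lower in the libraries numbered 3, and 3 of the 8 storage genes were higher. The 3 synthesis genes Scd2, Scd1 and Fasn had log2 differences by number of -3.22, -1.53 and -1.01, all without overlap, against 25.2% of all tested genes, and DESeq2 called all 3 lower, against 3.36%. Of the 8 storage genes 6 lay above 0, with a median of 0.39. Gpnmb had 1.79 ± 0.29 (edgeR adjusted p = 0.0725), 1.95 within the controls and 1.57 within the knockouts. Pparg stood at 2.65 (control 1), 7.48 (control 3), 3.26 (knockout 1) and 5.94 CPM (knockout 3). Its libraries numbered 3 were high, by 1.18 ± 0.27 on the log2 scale. Fabp4, at 18.3 (control 1), 30.6 (control 3), 12.8 (knockout 1) and 34.4 CPM (knockout 3), was the third storage gene with no overlap, at 1.06 ± 0.22. DESeq2 called these 3 storage genes higher, against 2.91% of genes. Plin2, Trem2 and Lpl had 0.52, 0.27 and 0.19, and Fabp5 and Acsl1 -0.24 and -0.41.

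**Figure D4:**
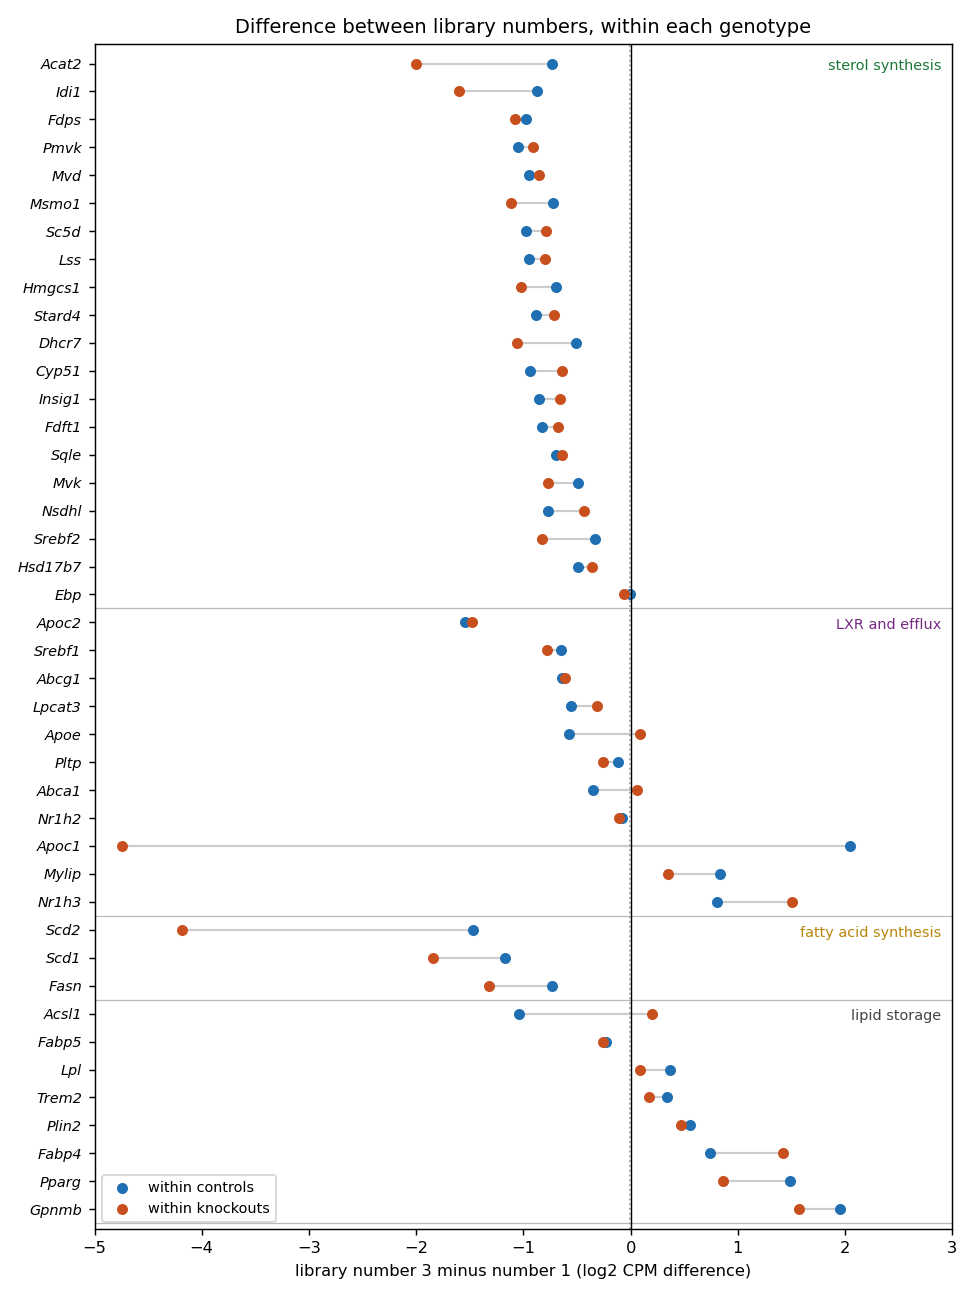
Difference in log2 CPM between library number 3 and number 1 for each gene, within the controls (blue) and within the knockouts (orange), joined by a line and grouped by role. The dotted line is the median of all tested genes. Ebp lies at 0 and the other sterol genes to the left of 0 in both genotypes, while Gpnmb, Pparg, Fabp4, Nr1h3 and Mylip lie to the right.

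Other lists moved with library number too. All 20 cell cycle genes were lower in number 3, with a median log2 difference of -1.29. In 18 (90.0%) the numbers did not overlap, against 25.2% of all tested genes, and DESeq2 called 16 lower, against 3.36%. The 14 fibroblast genes had a median log2 difference of 0.83 and did not move together. Without overlap, 9 (64.3%) were higher and 3 (21.4%) lower in number 3, against 26.2% and 25.2% of all tested genes. B cell markers summed to 40.7 and 54.5 CPM in the libraries numbered 1 and to 7.48 and 4.98 CPM in those numbered 3, mostly Ighm and Cd79b. The part of cell cycle, of these other cells or of sex in the lower sterol genes was not tested, and sex and number cannot be told apart.

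**Figure D5:**
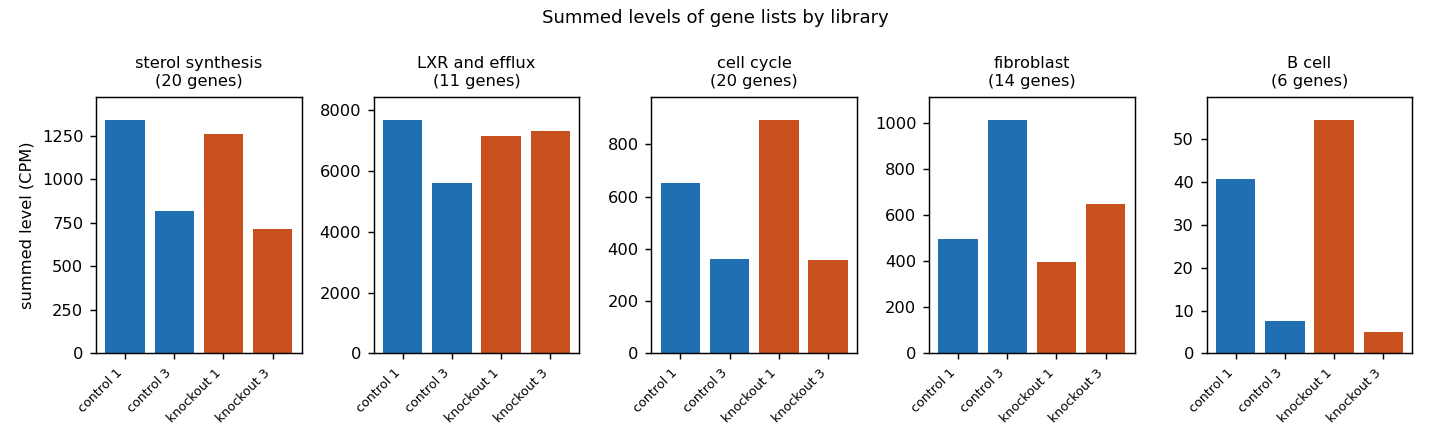
Summed level in CPM of the sterol synthesis arm, the LXR and efflux arm and 3 marker lists in each library, blue for controls and orange for knockouts, with bars from 0. Sterol synthesis and cell cycle sums are high in the libraries numbered 1, at 1342 and 1263 CPM and at 651 and 893 CPM, and the efflux sum is lowest in control 3.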

How the data were processed

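Poly(A) RNA of 4 macrophage libraries was sequenced from strand-marked (dUTP) libraries as pairs of 150 bases, per the labels' protocols. The tools cutadapt 1.9, HISAT2 2.0.4, StringTie 1.3.4d, edgeR and DESeq2 are named in the submitters' processing notes. For each gene and library the deposited table gives an estimated count and the authors' FPKM, per the file headers. The estimated counts were whole numbers that had not been normalized, and a read pair may have given 4 counts in part of the genes. FPKM values, scaled by the authors for gene length and library size, were used for levels between genes. The genome build, strand use in counting and the handling of reads with several matches are not given in the sources used here. Coordinates are those of the table, and 94.2% of 55141 shared identifiers match GENCODE M21 (GRCm38), 38 of the 42 members among them. A further 4 value columns matched no sample and were not used.

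Counts were tested as deposited with edgeR 4.0.16 (R 4.3.3; TMM, filterByExpr, quasi-likelihood, two-sided) without a block, adjusted by Benjamini-Hochberg over all tested genes at 0.05, once by genotype and once by library number. CPM uses the scaled library sizes, and the standard error is the fold change divided by the root of its F statistic. The level of 12 counts was 0.151 to 0.218 CPM, a floor that covers counting error alone. DESeq2 1.42.0, limma 3.58.1 on log2 FPKM with a pseudocount of 1 or 0.1, other scalings and filters, a block by library number and leaving out single libraries were alternatives. The tests were also run on simulated counts with known fold changes, and the outcome is not given here. Copies were taken as other transcripts with at least 95% identity over 300 aligned bases.

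All 42 members are described. Of each other pathway list the text names the genes passing edgeR between genotypes or, where none did, the 2 most abundant per length and the lowest p in each direction; of each marker list its sum and 2 leading genes. A few genes of these lists are not reported here by name. Neutrophil markers summed to 316 to 696 CPM, led by Csf3r and S100a8. Without Csf3r they summed to 14.8 to 26.8 CPM, and Ly6g and Retnlg had no count in any library. T cell markers summed to 17.7 to 24.7 CPM, led by Cd4 and Lck. Without Cd4 they summed to 0.144 to 1.01 CPM, and Cd3e and Cd8a had no count. Dendritic cell markers summed to 4.13 to 5.68 CPM, led by Ccr7 and Xcr1, and endothelial markers to 121 to 147 CPM, led by Pecam1 and Vwf. Members and lists were chosen with earlier results of these data known.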

Additional observations from a re-analysis of the deposited data

Results flagged for a closer look

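In 5 of the 42 genes (11.9%) the knockout moved in opposite directions in the libraries numbered 1 and 3, each by more than 0.3 on the log2 scale, against 12.6% of all tested genes. With 1 library per genotype and number this difference between the numbers was not tested. Acat2 had a log2 difference of 0.55 within number 1 and of -0.72 within number 3. For Nr1h3 the values were -0.36 and 0.33, and for Acsl1 -0.57 and 0.66. Scd2 had 2.28 and -0.43, where knockout 1 alone was high. Apoc1 had 0.99 within number 1 and -5.8 within number 3, the latter against 0 counts and dependent on the prior count. Against the floor of 12 counts it was at least 11.2-fold lower there. Opposite signs of any size were seen in 21 of the 42 genes (50.0%) and in 47.0% of all tested genes.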

How the results depend on the processing

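Beside the test used, the alternatives tried were DESeq2, 3 other scalings, 2 other filters, counts divided by 4, limma on FPKM, a block by library number and the omission of each library. Those on the sterol genes by library number were chosen after seeing the data. Between genotypes edgeR called 0 genes under each of its settings, DESeq2 74 and DESeq2 with the replicate block 175. The replicate block of edgeR (library number as a term) called 0, with 929 genes at an unadjusted p under 0.05. The labels do not say that equal numbers pair the libraries, yet across 17260 genes the difference of number 3 from 1 in the controls correlated with that in the knockouts (r = 0.419), as a description. With the block and DESeq2 1 member was called, Lpl, at 0.72 on the log2 scale (adjusted p = 0.0202). By library number edgeR called 177 genes, 375 with no filter, and 1 to 87 with 1 library left out. DESeq2 called 1572, or 1230 with genotype as a term, and limma 10 on log2(FPKM + 1), 131 on that scale with a mean FPKM of at least 1, and 16 on log2(FPKM + 0.1).

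All 3 genotype medians of the gene groups kept their sign except when a library was left out (sterol synthesis -0.50 to 0.47, efflux -0.21 to 0.10). Of 502 member values without such omissions 15 reversed. In the order edgeR with the block, DESeq2 with the block, limma on log2(FPKM + 1) with either filter and limma on log2(FPKM + 0.1), Acat2 turned to -0.0839, -0.0802, -0.042 and -0.0897, Nr1h3 to -0.013, -0.0085, -0.0094 and -0.0211, and Acsl1 to 0.0466, 0.0509, 0.0326 and 0.038. With 1 library left out, which mixes number and genotype, the log2 fold change ranged widely: Hmgcs1 -0.41 to 0.60, Mvk -0.15 to 0.61, Pmvk -0.49 to 0.64, Mvd -0.55 to 0.48, Idi1 -1.47 to 0.11, Fdps -0.88 to 0.32, Sqle -0.54 to 0.20, Lss -0.51 to 0.48, Cyp51 -0.55 to 0.39, Msmo1 -0.98 to 0.11, Nsdhl -0.30 to 0.48, Sc5d -0.48 to 0.52, Dhcr7 -0.35 to 0.69, Acat2 -1.12 to 0.87, Insig1 -0.58 to 0.28, Stard4 -0.44 to 0.46, Nr1h3 -0.82 to 0.70, Abca1 -0.25 to 0.10, Apoc1 -9.08 to 0.0391, Apoc2 -1.31 to 0.56, Mylip -0.44 to 0.40, Lpcat3 -0.21 to 0.35, Srebf1 -0.63 to 0.16, Fasn -0.89 to 0.41, Scd1 -0.89 to 1.00, Scd2 -1.33 to 2.83, Pparg -0.69 to 0.80, Fabp4 -0.94 to 0.51, Acsl1 -0.47 to 0.58 and Gpnmb -1.62 to 0.65. The cause was not tested. The sterol median by number lay between -0.87 and -0.72 in all settings.

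With 2 libraries per group, the median standard error of the genotype log2 fold change over the 42 members was 0.39 in the fit of genotype alone. How many fragments gave each count is unknown, which limits low genes such as Apoc1 and Thrsp.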
